A study of Mus musculus with 4 samples.

Results

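The voltage-gated sodium and calcium channel genes were followed across the cell classes of the posterior substantia innominata of the mouse. They were taken as all genes whose symbols start with Cacna, Cacnb or Cacng, or with Scn and a digit, and that were listed by identifier in every library. Of the 31899 genes common to the libraries, 40 met this rule, and no measured value entered it. They comprise 10 pore subunits and 4 beta subunits of sodium channels, 4 L-type, 3 P/Q-, N- or R-type and 3 T-type calcium channel pores, 4 alpha2delta subunits, 4 calcium channel beta subunits, 6 gamma subunits known as AMPA receptor auxiliary proteins and 2 gamma subunits of muscle type. The data are droplet single-nucleus RNA sequencing libraries of the dissected region, 2 from male and 2 from female wild-type mice of 8 weeks, without a transgene or treatment in the labels. Nothing in the labels tells separate animals from pools or repeats within a sex; the p-values therefore rest on the spread of these 4 samples alone, part of which may be technical.

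The pore subunit of a voltage-gated channel senses the membrane potential and opens to let sodium or calcium into the cell. Sodium channels carry the rising phase of the action potential, and beta subunits alter their gating and placement. Calcium channels link depolarization to transmitter release, firing patterns and gene expression, and their alpha2delta and beta subunits promote surface delivery and tune gating. The substantia innominata lies in the basal forebrain, where GABAergic, glutamatergic and cholinergic neurons are intermixed.

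Nuclei with 500 to 8000 genes and under 5% mitochondrial counts were classed by raw counts of unique molecular identifiers (UMIs), requiring at least 2 summed over a gene pair: Chat with Slc5a7 for cholinergic, Gad1 with Gad2 for GABAergic, Slc17a6 with Slc17a7 for glutamatergic, Gja1 with Aqp4 for astrocyte, Mog with Mag for oligodendrocyte, Pdgfra with Cspg4 for oligodendrocyte precursor (OPC) and Inpp5d with Csf1r for microglia. The GABAergic class was split by at least 2 UMIs of Drd1 or of Drd2 or at least 3 of Sst. Nuclei that met several classes (561 to 1165 per library) were dropped, and 1730 to 5188 per library met none. Of the nuclei kept, 8829 and 8577 came from the males and 10881 and 10581 from the females, with median depths of 10406, 10015, 4192 and 3806 UMIs. GABAergic nuclei numbered 2735 to 3909 per library, glutamatergic 145 to 390, cholinergic 76 to 136, Drd1 22 to 175, Drd2 60 to 198, oligodendrocyte 954 to 1387, astrocyte 173 to 242, OPC 151 to 301 and microglia 148 to 274. The Sst class held 47 to 55 nuclei in 3 libraries and 6 in female 1. Depth and software version changed with sex and cannot be told apart from it. Version and gene list also differed between the females, with 55357 genes listed in female 1 and 32285 in female 2 against 33696 in each male. In all, 23 barcodes were shared by the males, 35 by the females and 0 between the sexes.

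Markers that had not set the classes followed some labels and not others. The summed level of 6 cholinergic markers was 285 to 354 CPM (UMIs of a gene scaled to 1000000 UMIs of its class in that library) in cholinergic nuclei, and that of 6 OPC markers was 8924 to 12264 CPM in OPC. The 5 glutamatergic markers summed to a mean of 78.7 CPM in glutamatergic nuclei and to at most 18.2 CPM in any other class, and the 3 markers of the Drd2 type to 257 CPM in Drd2 against 72.3 CPM in Drd1 nuclei. The 3 markers of the Drd1 type summed to more in cholinergic nuclei (138 CPM) than in Drd1 nuclei (101 CPM). Isl1, also on the cholinergic list, gave 130 CPM of the cholinergic sum. Tac1 and Pdyn were higher in Drd1 nuclei (41.3 and 22.1 CPM) than in cholinergic ones (6.06 and 2.64 CPM). The 5 Sst neuron markers summed to more in cholinergic (205 CPM) than in Sst nuclei (174 CPM). Nos1 and Elfn1 were higher in cholinergic nuclei, while Npy, Lhx6 and Pvalb were higher in Sst nuclei. The 5 markers of striatal projection neurons did not set Drd1 nuclei (1253 CPM) apart from Sst (1271 CPM) or cholinergic ones (1221 CPM), although Drd2 nuclei had 1400 CPM. The 2 GABAergic markers were highest in astrocytes (509 CPM, against 205 CPM in GABAergic nuclei), and 1 of them, the vesicular GABA transporter Slc32a1, had 40.5 CPM in GABAergic and 24.1 to 42.2 CPM in glial nuclei. The names Drd1, Sst and GABAergic therefore stand for the genes that set the classes. Neuronal transcripts were present in glial nuclei: the sum of Rbfox3, Snap25, Syt1, Stmn2 and Celf4 averaged 5153 CPM in neurons, 1199 in astrocytes, 1494 in OPC, 1889 in oligodendrocytes and 2165 in microglia.

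Of the 40 members, 32 reached a class mean of 10 CPM, and 28 of these 32 were highest in a neuronal class: 9 in Drd2, 8 in cholinergic, 7 in glutamatergic, 2 in Sst, 1 in Drd1 and 1 in other GABAergic nuclei. Those with their maximum in glia included Cacng4 and Cacng7 in OPC and Cacna2d4 in oligodendrocytes. The 8 members below 10 CPM in every class mean were the skeletal muscle pores Scn4a and Cacna1s, the sensory neuron sodium channels Scn10a and Scn11a, the retinal calcium channel Cacna1f, the muscle-type Cacng1 and Cacng6, and the sodium channel beta subunit Scn4b. These orders of class means are descriptions, and neighbouring classes often lay within the spread of the libraries.

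**Figure D1:**
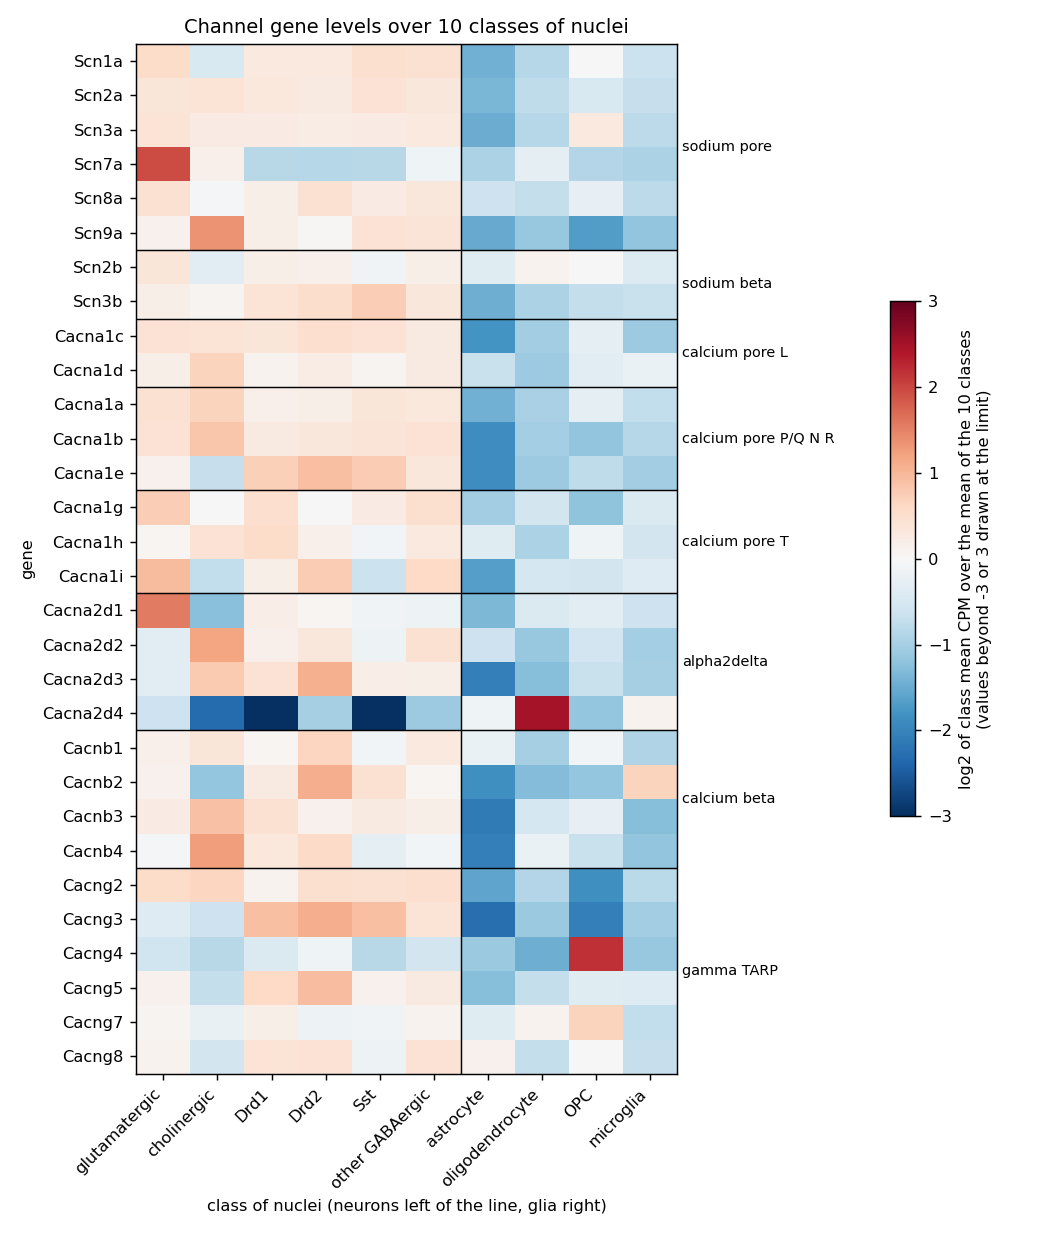
Each cell shows the log2 ratio of a gene's class mean (CPM, 4 libraries) to its mean over 10 classes, for 30 of the 32 members with a class mean of at least 10 CPM, ordered by role from top to bottom, with neuronal classes left of the vertical line. Most genes are paler or red in neurons and blue in glia, while Cacng4 stands out in OPC, Cacna2d4 in oligodendrocytes and Cacna2d1 and Scn7a in glutamatergic nuclei.

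The 10 class comparisons were fitted across all genes with edgeR's quasi-likelihood test on UMI sums per library, with the library as a block. A gene was called at a Benjamini-Hochberg adjusted p under 0.05 and a fold of at least 2. Between glutamatergic and GABAergic nuclei 2 of 34 members tested were called, both higher in glutamatergic nuclei (4.19% of all genes were called, 2.3% higher and 1.88% lower). At any fold 13 members passed, beside 15.2% of all genes. Cholinergic against GABAergic nuclei gave 2 higher and 4 lower members of 34 (9.35% of all genes, 4.54% higher and 4.81% lower), and 20 members at any fold (25% of all genes). Drd1 against Drd2 nuclei gave 0 of 30 members (0.683% of all genes, 0.322% higher and 0.36% lower), with 12 members at an unadjusted p under 0.05 (1365 of 10547 genes) and 3 at an adjusted p under 0.05 without the minimum fold (3.64% of all genes). Drd1 or Drd2 nuclei against other GABAergic nuclei gave 1 higher member of 35 (1.8% of all genes, 1.21% higher and 0.597% lower), and 11 at any fold (15.9%). Sst nuclei against the same reference gave 0 of 32 (1.13% of all genes, 0.697% higher and 0.438% lower), with 8 at an unadjusted p under 0.05 (1485 of 14627 genes) and 4 at an adjusted p under 0.05 at any fold (2.78%). OPC against oligodendrocytes gave 2 higher and 1 lower of 31 (18% of all genes, 9.99% higher and 7.99% lower), and 21 at any fold (35.7%).

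The glial classes were each set against all neurons. In OPC 2 members were higher and 11 lower of 36 tested (21.9% of all genes were called in either direction, 12% higher and 9.83% lower). Astrocytes had 23 lower and 0 higher of 34 (32.2% in either direction, 14.9% higher, 17.3% lower). Oligodendrocytes had 24 lower and 1 higher of 35 (27.1% in either direction, 13.5% higher, 13.7% lower). Microglia had 25 lower and 0 higher of 33 (28.8% in either direction, 14% higher, 14.7% lower). Without the minimum fold 26, 30, 29 and 28 members passed in OPC, astrocytes, oligodendrocytes and microglia, beside 40.4%, 49.1%, 59.3% and 43.6% of all genes. The median log2 fold of the members was -1.85 in astrocytes, -1.17 in oligodendrocytes, -1.39 in microglia and -0.70 in OPC, against -0.11, -0.02, -0.11 and -0.01 over all genes tested. Scaling by total UMIs moved the median of all genes by 0.32 in the microglia comparison and by 0.14 in the astrocyte comparison, and left 18 and 21 members called lower there.

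Of the sodium channel pores, 2 were called between neuronal classes, Scn9a and Scn7a. Scn9a, a pore best known from peripheral sensory neurons, was higher in cholinergic nuclei. Its level there was 301, 308, 283 and 346 CPM in male 1, male 2, female 1 and female 2, against 148, 148, 178 and 158 CPM in GABAergic nuclei. The groups did not overlap, and the fitted difference was 1.05 ± 0.08 on the log2 scale (SE, 4 libraries, adjusted p = 2.59e-10), a 2.07-fold rise. It fell just under the required fold with total UMIs in place of TMM, the trimmed mean of M-values used for scaling (0.98), on thinned nuclei (0.97) and without female 2 (0.99). Scn1a, the pore that dominates in many fast-spiking interneurons, went the other way, with 207, 188, 158 and 160 CPM in cholinergic against 355, 360, 307 and 314 CPM in GABAergic nuclei. That difference, -0.83 ± 0.07 on the log2 scale, was below the fold required for a call, although no cholinergic value reached any GABAergic one.

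Scn7a, an atypical member of the family linked to sodium sensing, was called in glutamatergic nuclei at a low level. It reached 31.6, 23.8, 9.77 and 10.4 CPM there, from 169, 130, 9 and 14 UMIs, against 5.85, 5.14, 3.79 and 2.54 CPM in GABAergic nuclei. Every glutamatergic library lay above every GABAergic one, and both males lay above both females. The fitted difference was 2.26 ± 0.15 on the log2 scale (adjusted p = 2.94e-10, a 4.79-fold rise). On nuclei thinned to 3000 UMIs and classed anew it was 1.44 with an edgeR adjusted p of 0.249. That fit held 75, 79, 50 and 45 glutamatergic nuclei, against 379, 390, 145 and 159 in the main fit.

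Scn2a and Scn8a, the main pores of the axon initial segment of many central neurons, and Scn3a, best known from the developing brain, were not called in any comparison between neuronal classes. Scn2a had class means of 422 to 477 CPM over the 6 disjoint neuronal classes and Scn3a of 174 to 200 CPM. In OPC Scn3a was not called against neurons: it had 203, 220, 165 and 144 CPM there, and 202, 199, 162 and 167 CPM in neurons. These ranges overlapped, and the fitted difference was -0.08 ± 0.10 (adjusted p = 0.572). Against oligodendrocytes, at 91.1, 84.6, 68.8 and 86.8 CPM, Scn3a was higher in OPC by 1.14 ± 0.12 on the log2 scale (adjusted p = 9.74e-08). Raising the class thresholds by 1 UMI put this difference at 0.98, just under the fold required.

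In OPC Scn9a was lower, at 18.7, 24.5, 69.7 and 41.1 CPM against 148, 147, 184 and 164 CPM in neurons without overlap (log2 difference -2.24 ± 0.16, adjusted p = 1.44e-11). Of the 9 sodium pores tested in OPC, 2 were called lower. In astrocytes, oligodendrocytes and microglia 6 pores were called lower, out of 8, 9 and 7 tested.

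Among sodium channel beta subunits, which dock on the pores and act as adhesion proteins, 1 call was made between neuronal classes. Scn4b, known from striatal projection neurons, had 3.97, 4.16, 14.7 and 2.95 CPM in Drd1 or Drd2 nuclei, from 27, 27, 15 and 4 UMIs. Other GABAergic nuclei had 1.13, 0.84, 1.81 and 0.98 CPM, so the groups did not overlap (log2 difference 2.28 ± 0.28, adjusted p = 3.79e-07). Without the library block the difference was 2.38 with an adjusted p of 0.13, and on thinned nuclei the gene was too low to be tested. Scn3b was called lower in each of the 4 glial classes.

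The high-voltage calcium channel pores held narrow ranges among neurons except Cacna1e. This R-type pore, which supports dendritic calcium entry and burst firing, was lower in cholinergic nuclei: 340, 352, 442 and 259 CPM against 744, 741, 851 and 621 CPM in GABAergic nuclei. All cholinergic values lay below all GABAergic ones, with a log2 difference of -1.03 ± 0.07 (adjusted p = 1.65e-11) that was -0.99 without female 2. Drd1 or Drd2 nuclei were above other GABAergic nuclei by 0.58 ± 0.06, short of the required fold. Cacna1b, the N-type pore, and Cacna1d, an L-type pore that opens at lower potentials, were 0.48 ± 0.07 and 0.48 ± 0.06 higher in cholinergic nuclei on the log2 scale, also short of it. Cacna1a, the P/Q-type pore of most central terminals, had means of 592 to 844 CPM over the disjoint neuronal classes, and Cacna1c, the most widespread L-type pore of the brain, 786 to 920 CPM.

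In glia these pores were lower, and the neuron markers give the scale for that. Cacna1c fell in astrocytes from 809, 797, 838 and 767 CPM in neurons to 179, 148, 265 and 160 CPM (log2 difference -2.26 ± 0.12, adjusted p = 1.55e-12), without overlap. Cacna1b fell in OPC by 1.73 ± 0.12 on the log2 scale (adjusted p = 6.38e-12), from a mean of 323 to 105 CPM. Cacna1a, Cacna1c and Cacna1d were lower in OPC by less than the required fold, at 65.1%, 65.9% and 65.0% of the neuronal level.

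T-type calcium channels open near rest and support rebound bursts. Cacna1i, 1 of the 3, was lower in cholinergic nuclei, with 13.9, 12.6, 17.1 and 17.8 CPM against 36.6, 35.5, 40.1 and 41.0 CPM in GABAergic nuclei. No values overlapped (log2 difference -1.27 ± 0.15, adjusted p = 2.31e-07). In Sst nuclei it had 26, 16.1, 0 and 22.9 CPM against 36.9, 35.7, 39.5 and 41.6 CPM in other GABAergic nuclei. The 0 belonged to female 1, whose 6 Sst nuclei also gave no Cacng4, and the difference of -0.81 ± 0.22 (adjusted p = 0.0132) did not reach the required fold. Cacna1g and Cacna1h were not called between neuronal classes.

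The alpha2delta subunits, the binding site of gabapentinoid drugs in the case of Cacna2d1 and Cacna2d2, gave 2 calls among neuronal classes, both of Cacna2d1. Cacna2d1 was high in glutamatergic nuclei, at 1181, 1162, 1348 and 1180 CPM, against 396, 388, 432 and 302 CPM in GABAergic nuclei. The lowest glutamatergic library was well above the highest GABAergic one, and the log2 difference was 1.72 ± 0.06 (adjusted p = 2.29e-14), a 3.29-fold rise. After thinning to 3000 UMIs, 91.8% to 92.6% of glutamatergic nuclei held a Cacna2d1 UMI, against 46.9% to 58.0% of GABAergic and 19.3% to 34.4% of astrocyte nuclei; before thinning these shares were 94.5% to 99.2%, 63.8% to 81.9% and 19.1% to 25.1%. For these shares the classes were set before thinning, which kept 34 to 172 astrocyte nuclei per library, 139 to 389 glutamatergic and 2554 to 3892 GABAergic ones.

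In cholinergic nuclei Cacna2d1 was low, at 237, 160, 193 and 102 CPM, below every GABAergic library (log2 difference -1.08 ± 0.09, adjusted p = 1.95e-09). Without female 2 it was -0.99, under the required fold. Cacna2d2 and Cacna2d3 moved the other way there, by 0.82 ± 0.07 and 0.63 ± 0.07 on the log2 scale, both short of the required fold. Cacna2d3, the longest member of the family, was lower in Drd1 than in Drd2 nuclei, with 855, 691, 827 and 531 CPM against 987, 946, 1358 and 1225 CPM. The ranges did not overlap, and the difference of -0.65 ± 0.11 (adjusted p = 0.00115) was smaller than the required fold.

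Cacna2d4, an alpha2delta subunit known from photoreceptors, was the member that marked oligodendrocytes. It had 12.2, 17.1, 24.7 and 10.9 CPM there, from 43, 52, 75 and 36 UMIs, against 0.98, 0.62, 2.64 and 1.10 CPM in neurons. The OPC sums held no UMI of this gene in male 1 or male 2, while female 1 contributed 2 and female 2 contributed 1. The groups did not overlap: oligodendrocytes were above neurons by 3.69 ± 0.27 on the log2 scale (adjusted p = 7.12e-07), and OPC were below oligodendrocytes by 3.87 ± 0.55 (edgeR log2 fold of -3.87, adjusted p = 6.61e-06). The fold against OPC rests on 3 UMIs in all. Over all alternatives for the neuron comparison the difference stayed between 3.36 and 3.94. Lrtm2 lies within the locus (chr6:119236526-119352407, GRCm38), on the opposite strand, and its part in the result was not tested.

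**Figure D2:**
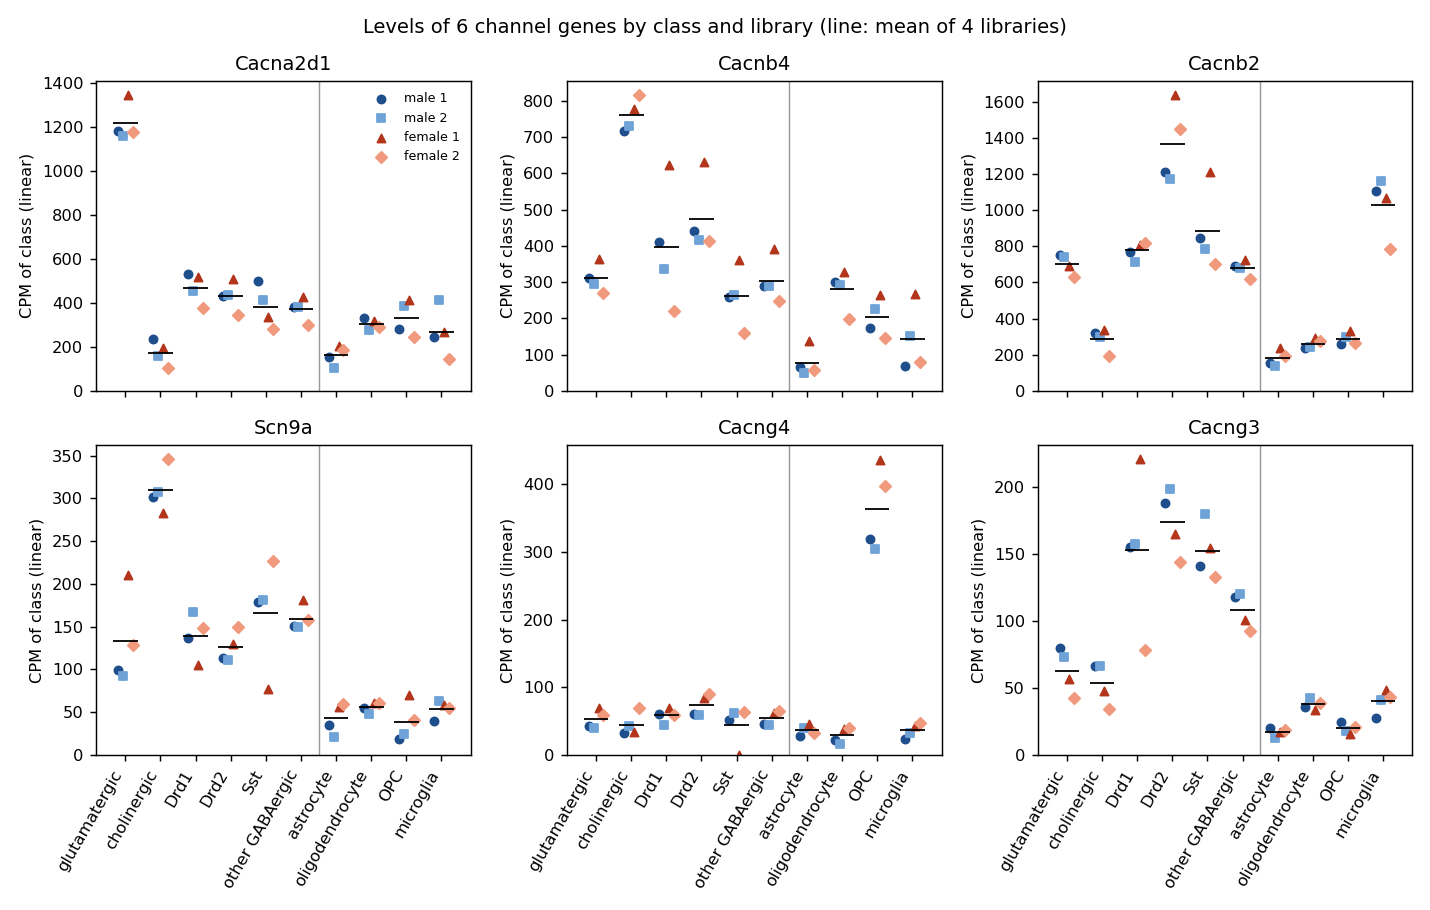
Points give the CPM of 6 members in each class for each of the 4 libraries (blue, males; red, females), on linear axes from 0, with a black line at the mean and the neuronal classes left of the grey line. Cacna2d1 is highest in glutamatergic nuclei, Cacnb4 and Scn9a peak in cholinergic nuclei, Cacnb2 in Drd2 nuclei and microglia, and Cacng4 in OPC.

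Calcium channel beta subunits bind the inside of the pore and set its surface density and inactivation. The 2 with the highest levels in these neurons, Cacnb2 and Cacnb4, split in cholinergic nuclei. Cacnb4 had 717, 731, 778 and 816 CPM there and 305, 300, 403 and 252 CPM in GABAergic nuclei, a rise of 1.36 ± 0.09 on the log2 scale (adjusted p = 1.88e-11). Cacnb2 had 320, 297, 338 and 194 CPM against 734, 717, 767 and 657 CPM, a log2 difference of -1.26 ± 0.08 (adjusted p = 7.04e-12). Neither pair of groups overlapped.

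Cacnb2 also separated the Drd1 from the Drd2 class. It had 768, 713, 809 and 817 CPM in Drd1 and 1212, 1171, 1641 and 1451 CPM in Drd2 nuclei, with the Drd2 libraries all higher. The log2 difference was -0.83 ± 0.08 (adjusted p = 1.65e-06), a 1.77-fold excess in Drd2 that fell short of a call. Microglia held Cacnb2 at 1104, 1161, 1068 and 785 CPM, above the 725, 707, 742 and 637 CPM of neurons in each library. The fitted difference was 0.22 ± 0.12 (adjusted p = 0.148). It depended on the scaling, with 0.54 (adjusted p = 0.000732) by total UMIs. On thinned nuclei, a change of depth and of the nuclei kept, it was -0.08. Within the Cacnb2 locus (chr2:14603088-14987908, GRCm38) 15 other annotated genes overlap, and their part in its counts was not tested.

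The gamma subunits of the AMPA receptor auxiliary type carry receptors to the synapse and slow their closing. Cacng4 was the clearest member of the OPC class, at 319, 304, 436 and 397 CPM. Neurons had 46.2, 45.3, 61.4 and 65.9 CPM and oligodendrocytes 22.5, 15.4, 37.5 and 39.6 CPM. OPC were far above both in every library, by 2.66 ± 0.09 on the log2 scale against neurons (adjusted p = 3.27e-18, a 6.34-fold rise) and by 3.71 ± 0.14 against oligodendrocytes (adjusted p = 1.68e-14, a 13.1-fold rise). Over the alternatives the second difference ranged from 3.28 to 4.07.

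At 3000 UMIs per nucleus 54.2% to 61.3% of OPC nuclei held a Cacng4 UMI, against 3.03% to 13.1% of oligodendrocyte and 3.57% to 19.4% of microglial nuclei, the last a class not known for this gene. Without thinning the shares were 59.8% to 75.6%, 4.19% to 7.57% and 3.66% to 7.66%, at median depths of 2334 to 4504 UMIs in OPC, 1504 to 2163 in oligodendrocytes and 1473 to 2062 in microglia. With the classes set before thinning, 73 to 160 OPC, 231 to 297 oligodendrocyte and 28 to 50 microglial nuclei per library were kept for the thinned shares. The OPC share exceeded the microglial share in every library by either count.

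Cacng3 and Cacng2, the latter known as stargazin, showed the reverse. Cacng3 fell from 120, 122, 99.9 and 90.0 CPM in neurons to 24.6, 17.5, 15.9 and 21.1 CPM in OPC, a log2 difference of -2.50 ± 0.16 (adjusted p = 1.08e-12). Cacng2 fell from 87.1, 85.7, 107 and 115 CPM to 11.7, 11.6, 21.9 and 32.9 CPM, a difference of -2.43 ± 0.18. At 18.6% and 19.0% of the neuronal level, both lay below all 5 neuron markers in OPC, which ranged from 22.4% to 46.9%. Among neurons Cacng3 was higher in Drd1 or Drd2 nuclei (174, 182, 174 and 116 CPM) than in other GABAergic nuclei (118, 120, 101 and 92.8 CPM), with overlap between libraries and a within-library difference of 0.65 ± 0.06 that did not reach the required fold. Cacng7 was higher in OPC than in neurons by 0.53 ± 0.12, in 4 of 4 libraries, again short of it.

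The muscle-type Cacng1 was called higher in OPC on few UMIs: 8, 5, 0 and 1, or 9.37, 5.82, 0 and 1.17 CPM, against 0.71, 0.77, 1.04 and 0.47 CPM in neurons. The female OPC libraries overlapped the neuronal values. The log2 difference of 2.52 ± 0.65 (adjusted p = 0.00263) became 1.78 with an adjusted p of 0.105 without male 1. Cacng1 (chr11:107703218-107716522) lies beyond the end of Cacng4 (chr11:107732357-107794557) on the same strand of GRCm38, and the part of Cacng4 reads in this count was not tested.

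How the glial levels read against free or mixed neuronal RNA was measured with the 5 neuron markers. In astrocytes the markers stood at 20.8% to 31.2% of their neuronal level within a library (mean of 4); of the 28 members compared, 12 stood above that whole range, 12 within it and 4 below. The markers stood at 31.8% to 46.7% in oligodendrocytes, with 9 members above, 19 within and 0 below. In OPC the markers reached 22.4% to 46.9% and 20 members lay above, 6 within and 2 below. In microglia they reached 36.7% to 54.2% and 7 members lay above, 18 within and 3 below. Members within the marker range are at the level of neuronal background, and their presence in those glia is not shown by these counts.

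**Figure D3:**
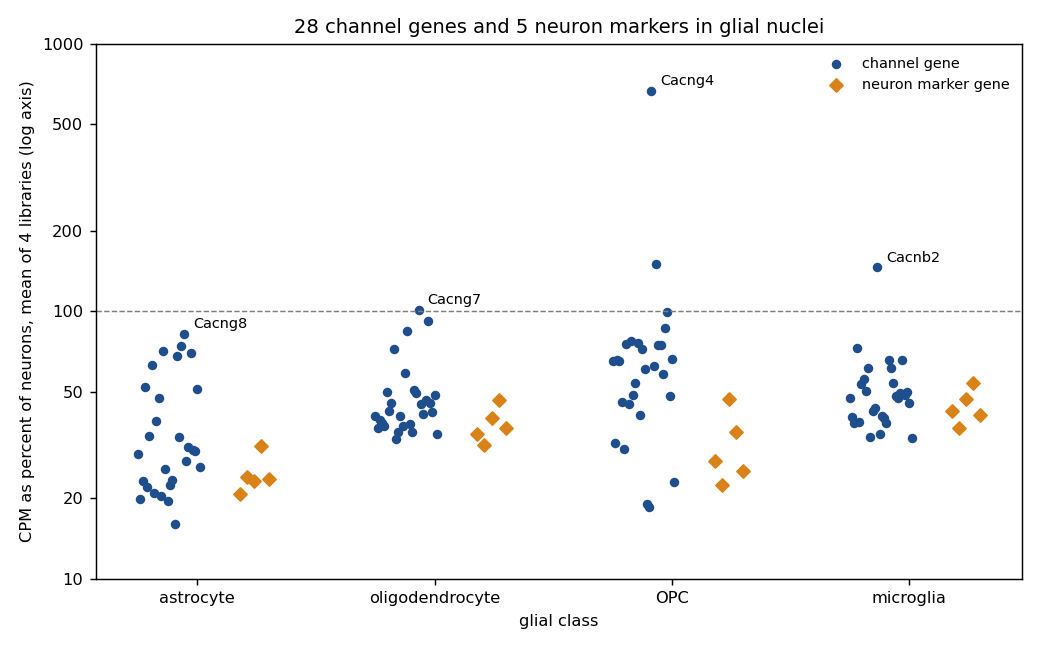
For each glial class, blue points give the CPM of 28 members as a percent of that in neurons (mean of the 4 within-library percents) and orange diamonds the same for 5 neuron marker genes, on a log axis with the neuronal level dashed. Most members in oligodendrocytes and microglia sit at the height of the markers, while in OPC 20 of the 28 sit above them and Cacng4 reaches 669%.

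Of 37 further genes that bind, anchor or act with the channels, 36 were tested in most comparisons. Cholinergic against GABAergic nuclei gave 2 higher and 2 lower partners (4.54% of all genes higher and 4.81% lower). Gem, a small GTPase that inhibits calcium channels, rose by 3.52 ± 0.33 on the log2 scale. Rimbp2, which tethers calcium channels at the active zone, rose by 2.02 ± 0.09. Cnih3, an AMPA receptor partner, and Stac2, a calcium channel adaptor, fell by 1.95 ± 0.17 and 1.58 ± 0.21 there. Glutamatergic against GABAergic nuclei gave 1 higher, again Gem (2.30 ± 0.32, beside 2.3% of all genes). Drd1 or Drd2 against other GABAergic nuclei gave Rem2, another small GTPase of this kind (1.22 ± 0.19, beside 1.21% of all genes higher). In OPC 9 of 36 were lower than in neurons and 0 higher (9.83% and 12% of all genes). Astrocytes had 20 lower and 3 higher of 36 (17.3% and 14.9%). Oligodendrocytes had 23 lower and 1 higher of 36 (13.7% and 13.5%), the latter Nfasc, a node of Ranvier adhesion protein, by 1.70 ± 0.11. Microglia had 25 lower and 1 higher of 36 (14.7% and 14%). The partners were not set against the neuron markers in glia.

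The study's stated aim was to quantify sex differences. No member was called between males and females in any of the 8 classes tested with edgeR's quasi-likelihood test, where a call needed only an adjusted p under 0.05. The share of all genes called was also low: 0.00536% in neurons as a whole, 0.00545% in GABAergic, 0.0631% in glutamatergic, 0.0498% in cholinergic, 0.0555% in astrocyte, 0.023% in oligodendrocyte, 0.095% in OPC and 0.0503% in microglial nuclei. Among the 39 members tested in neurons, 10 passed an unadjusted p of 0.05 (3048 of 18672 genes did), while DESeq2 made 1 call, Cacna2d2 (adjusted p = 0.0446), beside 948 of all genes. A gene whose male values did not overlap its female values was common throughout: 21 of 39 members in neurons beside 53% of all genes, 20 of 39 in GABAergic (52.6%), 18 of 32 in glutamatergic (46.5%), 17 of 29 in cholinergic (41.8%), 13 of 26 in astrocyte (39.4%), 19 of 32 in oligodendrocyte (43.6%), 13 of 29 in OPC (39.9%) and 12 of 25 in microglial nuclei (42.6%). These counts and shares were taken on CPM scaled by TMM, the trimmed mean of M-values. The CPM printed here are scaled by total UMIs, on which 24 of 39 members in neurons did not overlap.

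Cacna2d2 had the smallest p of the members in neurons. It measured 126, 128, 186 and 213 CPM, both females above both males, for a male over female log2 difference of -0.57 ± 0.09 (edgeR, adjusted p = 0.282). Female libraries were higher in all 7 disjoint classes tested, without overlap, by log2 differences from -0.51 to -1.66 (microglia). The smallest edgeR adjusted p was 0.245. In glutamatergic nuclei, for example, Cacna2d2 had 60.8, 73.3, 137 and 119 CPM, and in cholinergic nuclei 220, 208, 335 and 343 CPM. In microglia it stood at 33.8% of its neuronal level, below all 5 neuron markers (36.7% to 54.2%). In oligodendrocytes it stood at 33.3%, within their range of 31.8% to 46.7%. Its presence in these glia is therefore not shown. The summed neuron markers were higher in both females in astrocytes, OPC and microglia but not in oligodendrocytes, and their part was not tested. Cacng7 and Cacna1a were also higher in females in all 7 classes without overlap, by -0.35 to -1.91 and -0.03 to -0.48. They were picked for this pattern, and the share of all genes that meet it was not counted. Overlap was judged on CPM by total UMIs. In neurons the median log2 difference of all genes was -0.12 by total UMIs and -0.04 by TMM, which the fits use. Cacna1a lay within the neuron marker range in astrocytes (29.4%), oligodendrocytes (40.5%) and microglia (47.5%), and Cacng7 in microglia (54.1%). Not all members followed, with Scn3a higher in males in 5 of 7 classes. The 7 classes come from the same 4 libraries and are not separate evidence. Thinning to 3000 UMIs also dropped shallower nuclei and classed the rest anew. It left 75, 79, 50 and 45 glutamatergic and 122, 86, 40 and 25 astrocyte nuclei in male 1, male 2, female 1 and female 2. On thinned nuclei the Cacna2d2 difference was smaller in glutamatergic nuclei (-0.15 ± 0.42, from -0.88 ± 0.17) and astrocytes (-0.25 ± 0.54, from -0.68 ± 0.31). The same held in microglia (-0.93 ± 0.44, from -1.66 ± 0.35) and oligodendrocytes (-0.46 ± 0.27, from -0.73 ± 0.23). The part of depth in these changes was not tested. The Cacna2d2 difference was -0.51 in GABAergic nuclei before and after thinning, and larger after it in cholinergic nuclei (-0.80, from -0.63) and OPC (-1.17, from -0.80). In astrocytes the sign turned with class thresholds raised by 1 UMI, to 0.14.

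Scn7a went the other way in neurons, at 7.97, 6.90, 4.05 and 3.10 CPM (log2 difference 1.13 ± 0.28, adjusted p = 0.282). Cacng4 was 46.2, 45.3, 61.4 and 65.9 CPM (-0.40 ± 0.10, adjusted p = 0.282). Scn2a had 493, 485, 379 and 425 CPM and Scn3a 202, 199, 162 and 167 CPM, both males above both females (0.36 ± 0.10 and 0.36 ± 0.09, adjusted p = 0.282 for each). By role, males were higher in 7 of 9 sodium pores, 2 of 4 sodium beta subunits, 1 of 4 L-type, 1 of 3 P/Q-, N- or R-type and 0 of 3 T-type pores, 2 of 4 alpha2delta and 2 of 4 calcium beta subunits, 1 of 6 AMPA receptor auxiliary members and 2 of 2 muscle-type members. Over all genes tested males were higher in 46.4%, and the role counts were not tested. With total UMIs in place of TMM the sodium beta, calcium beta and muscle-type counts each changed by 1.

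**Figure D4:**
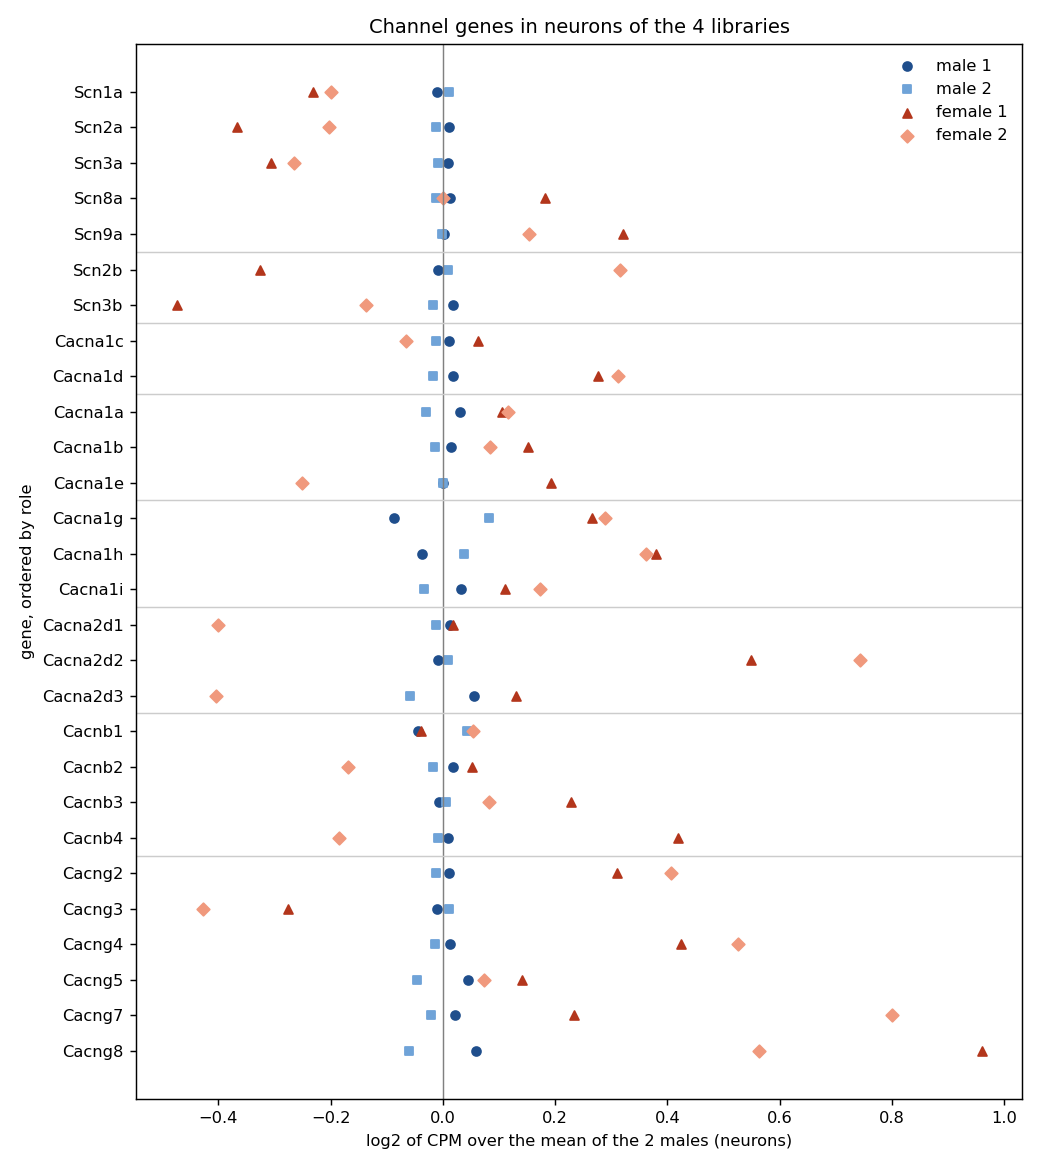
For 28 members, points give the log2 ratio of each library's CPM in neurons to the mean of the 2 males, with genes grouped by role and 0 marked. The 2 males lie close together for each gene and the females are spread more widely. Cacng8 and Cacna2d2 lie farthest to the right in female 1, and Cacng7 and Cacna2d2 in female 2.

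The outcome of these tests depended on the spread between the females. Without female 1, 23 of 39 members were called in neurons, beside 50.3% of all genes, and without female 2, 26 of 39, beside 57.7% of all genes. In those fits the lone female is assumed to vary like the 2 males, which differed little from each other. The members' share thus moved with the whole table.

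Among the members, the difference between the females in neurons ran with gene length, with exceptions. Span was not set against this ratio over all genes. Over 28 members with spans of 12.3 to 817 kb, the log2 ratio of female 2 to female 1 had a Spearman correlation of -0.54 with span, as a description across genes that share the same libraries. The 7 members under 50 kb had a median ratio of 0.09 (-0.40 to 0.64, 4 of 7 above 0). The 6 of at least 300 kb had a median of -0.32 (-0.53 to 0.04, 1 of 6 above 0). Scn2b, a sodium channel beta subunit of 12.3 kb, had 16.2 CPM in female 1 and 25.3 CPM in female 2, whereas Cacna2d3, of 817 kb, had 720 and 498 CPM. The same correlation was -0.44 for female 2 against the mean of the males and 0.01 for female 1 against it. The females also differ in software version and in the number of genes listed (55357 and 32285). The part of these differences in the ratio, and that of span in the sex comparisons, was not tested.

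**Figure D5:**
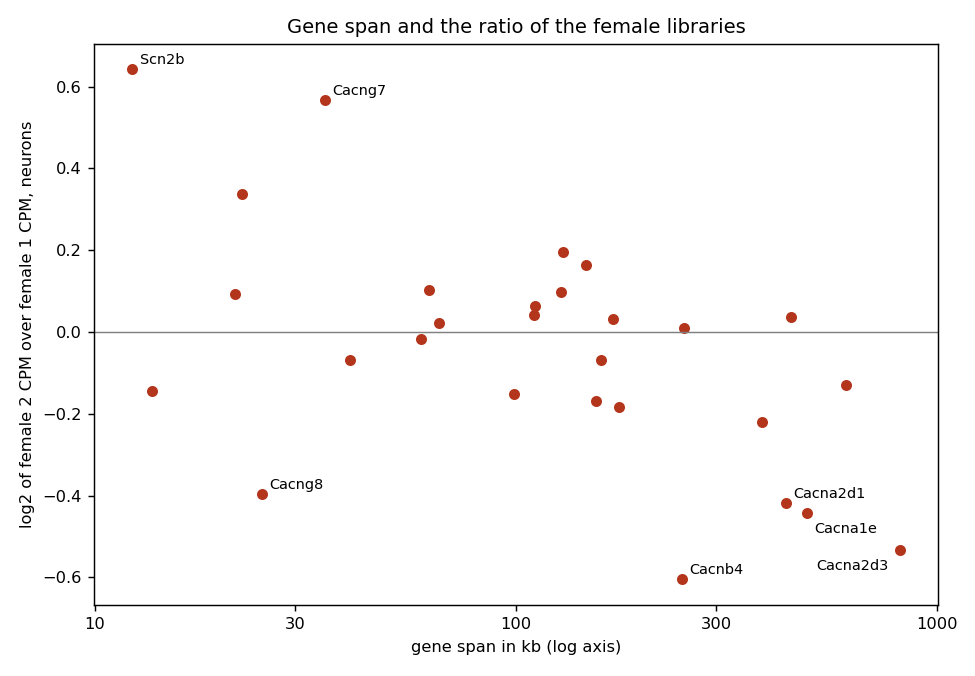
Each point is 1 of 28 members, with its annotated span in kb on a log axis and the log2 ratio of female 2 to female 1 CPM in neurons. Short genes such as Scn2b and Cacng7 lie high, Cacng8 lies low, and long ones such as Cacna2d3 and Cacnb4 lie low, with a Spearman correlation of -0.54.

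Whether the difference between classes itself differed by sex was tested with a class by sex term in 5 pairs of classes. For glutamatergic against GABAergic nuclei 1 member was called (0.79% of all genes), Scn9a, with within-library log2 ratios of -0.57, -0.67, 0.24 and -0.30. The ratios of both males were lower than those of both females, and the male minus female difference was -0.57 ± 0.12 (adjusted p = 0.00122). The call was lost with DESeq2 (-0.59), on thinned nuclei (-0.97), without male 1 (-0.64), without male 2 (-0.53) and without female 1, where the difference fell to -0.33. For Drd1 against Drd2 nuclei 0 of 31 members were called (0.0671% of all genes), with 5 at an unadjusted p under 0.05 (685 of 11925 genes). For OPC against neurons 0 of 36 were called (1.17%), with 7 at an unadjusted p under 0.05 (1445 of 17630 genes).

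For astrocytes against neurons 3 members were called (1.79% of all genes) and for oligodendrocytes against neurons 0 (1.46%), with 6 of 36 at an unadjusted p under 0.05 (1757 of 17411 genes). Cacna2d1 had ratios of -1.57, -2.11, -1.16 and -0.89 (male minus female -0.71 ± 0.19, adjusted p = 0.0191). Scn3a had -2.13, -2.56, -1.19 and -1.44 (-0.98 ± 0.27, adjusted p = 0.0213), and Scn2a had -2.01, -2.17, -1.30 and -1.45 (-0.67 ± 0.20, adjusted p = 0.0465). In each of the 3 both males lay below both females. Scn3a and Scn2a stood in astrocytes at 30.2% and 31.1% of their neuronal level, within the neuron marker range of 20.8% to 31.2%. Their presence in astrocytes is therefore not shown. Cacna2d1 stood at 38.9%, above that range. The summed neuron markers in astrocytes moved with this result, with 1100 and 812 CPM for male 1 and male 2 but 1513 and 1371 CPM for female 1 and female 2, and their part in it was not tested. With any 1 library left out 0 or 1 member was called. DESeq2 called 0 at differences of -0.76 for Cacna2d1, -0.996 for Scn3a and -0.69 for Scn2a, and 56 of 17527 genes. Calls numbered 0 with class thresholds raised by 1 UMI (Cacna2d1 then at 0.18), and after removal of the highest doublet scores 8.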

How the data were processed

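The deposited matrices hold raw UMI counts per gene and nucleus from 4 libraries, which the authors made with Cell Ranger 6.0.1 on mm10, with Seurat 5 also named, per the submitters' processing notes; the male file headers instead give version 9.0.1, and those of female 1 and female 2 give 7.0.0 and 7.2.0. No source used here states whether intronic reads were counted. Barcodes numbered 9157 to 10965 per library, with 53098268 to 158132452 UMIs in all.

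Counts were summed per class and library over 31899 common genes and tested with edgeR 4.0.16 (quasi-likelihood, TMM, filterByExpr; R 4.3.3), with Benjamini-Hochberg adjustment over all genes tested, after a test on simulated data. There were 10 class comparisons with library as a block, 8 sex comparisons and 5 class by sex terms. CPM were computed from the same sums. Doublets were kept. In each class comparison up to 8 called members each way were to be named, the 3 smallest p in each sex comparison and the 2 smallest in each class by sex term where none was called. The alternatives were DESeq2 1.42.0, total UMIs in place of TMM, no filter on low counts, class thresholds raised by 1 UMI, removal of the highest doublet scores (0.8% per 1000 barcodes), nuclei thinned to 3000 UMIs, each library left out, and the replicate block. Some members and sequences are not reported here, though every fit and count of calls includes all members. Gene positions are from GENCODE M21. The members and gene lists were chosen with earlier results of these data known.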

Additional observations from a re-analysis of the deposited data

Results flagged for a closer look

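In the comparison of glutamatergic with GABAergic nuclei, the within-library log2 ratio of Cacna2d1 was 1.97 in female 2 and 1.58 to 1.64 in the other libraries. For Cacnb2 in cholinergic against GABAergic nuclei it was -1.76 in female 2 and -1.27 to -1.18 in the others. Of 43 sets of 4 ratios checked these were the 2 with a library far from the rest, and chance gives about 1 in 20.

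The other kind is a class difference that itself differed between the sexes. Scn9a in glutamatergic against GABAergic nuclei had a male minus female difference of -0.57 on the log2 scale. In astrocytes against neurons the same difference was -0.71 for Cacna2d1, -0.98 for Scn3a and -0.67 for Scn2a, where the summed neuron markers in astrocytes were also higher in both females. Scn3a and Scn2a lay within the neuron marker range in astrocytes.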

How the results depend on the processing

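Numbers of members called moved by over 1.5 times as follows, with the genes called of all tested in brackets. DESeq2 gave 1 for sex in neurons (948 of 18672), and 0 for the class by sex terms of glutamatergic (4 of 17091) and of astrocyte nuclei (56 of 17527). Without a filter on low counts there were 2 for sex in microglia (399 of 18954), 5 for OPC against oligodendrocytes (2687 of 22730) and 1 for the Drd1 by sex term (26 of 21865). Raised class thresholds gave 2 for Drd1 against Drd2 (113 of 7559), 3 for Drd1 or Drd2 against other GABAergic (391 of 14524), 1 for the Drd1 by sex term (14 of 8721) and 0 for the astrocyte by sex term (49 of 16320). Removing the highest doublet scores gave 9 for OPC against oligodendrocytes (2473 of 11219), 1 for the Drd1 by sex term (21 of 11423) and 8 for the astrocyte by sex term (438 of 17181). Thinned nuclei gave 1 for sex in astrocytes (124 of 3777), 1 for Drd1 against Drd2 (33 of 403), 0 for Drd1 or Drd2 against other GABAergic (219 of 10977), 6 for OPC against oligodendrocytes (1340 of 8176), 15 for oligodendrocytes (2093 of 12460) and 10 for microglia against neurons (1694 of 12395), and 0 for the glutamatergic by sex term (6 of 13021); thinning leaves fewer nuclei and UMIs.

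With each library left out, calls by sex ranged from 0 to 26 in neurons, 0 to 25 in GABAergic, 0 to 14 in glutamatergic, 0 to 6 in cholinergic, 0 to 10 in astrocyte, 0 to 10 in oligodendrocyte, 0 to 7 in OPC and 0 to 5 in microglial nuclei, the upper values all without a female. Class comparisons ranged from 2 to 2 (glutamatergic), 3 to 8 (cholinergic, 3 without female 2), 3 to 6 (OPC against oligodendrocytes), 11 to 15 (OPC), 23 to 23 (astrocyte), 22 to 25 (oligodendrocyte) and 23 to 25 (microglia against neurons). The class by sex terms ranged from 0 to 2 (glutamatergic), 0 to 3 (Drd1), 0 to 0 (OPC), 0 to 1 (astrocyte) and 0 to 8 (oligodendrocyte). A lone library is assumed there to vary like the others. In all 8 sex comparisons the number of genes called among all tested also rose without either female, so the sex ranges are not particular to the members. For cholinergic nuclei the 3 calls without female 2 stood beside 1266 of 15102 genes, and the 8 without male 1 beside 1301 of 15527. For OPC against oligodendrocytes the 3 calls without male 2 stood beside 2060 of 12030 genes, and the 6 without female 2 beside 2297 of 11660.

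The sign turned in the class by sex term of Cacna2d1 in astrocytes, at 0.18 with raised thresholds. The cause was not tested for any of these changes. The replicate block called 0 members in each of the 8 sex comparisons. The replicate numbers are not known to pair libraries. Over 11318 genes the deviations from the group mean correlated at 0.23 for male 1 with female 1 and at -0.23 for male 1 with female 2. With 2 libraries per sex these values must be opposite, so they do not show whether the numbers pair libraries. Without the library block Drd1 or Drd2 against other GABAergic nuclei gave 0 calls (30 of 15416 genes). Depth and the 2 libraries per sex limit all sex results.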
